A study of Mus musculus with 42 samples.

Results

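In bone-marrow-derived macrophages (BMDM), 59 of 37310 genes in the count table were lower after 2 h of lipopolysaccharide (LPS) and close to untreated cells again after 24 h. These genes were chosen by their own values. The level of a gene was log2(mean CPM + 1), where CPM is the count scaled to a library total of 1000000 and the mean runs over the 6 libraries of a treatment and time. A gene was chosen by a mean of at least 5 CPM in Control at 2 h, a level at least 1 lower in LPS than in Control at 2 h, and a difference of at most 0.3 in either direction at 24 h. Of 9163 genes that reached 5 CPM, 150 fell by this much at 2 h. Besides the 59, another 81 of them were still lower at 24 h and 10 were higher. The falls and returns of the 59 genes are therefore given as a description, with no test.

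The cells came from mice labelled WT or KO, littermates with and without a myeloid deletion of Irf5, a transcription factor downstream of Toll-like receptors. Each genotype was sampled untreated (Control) at 0, 2 and 24 h, in palmitate at 2 and 24 h and in LPS at 2 and 24 h, which made 14 groups of 3 libraries, or 42 in all. The deletion was made with a Cre inserted at Lyz2, so it concerned cells that express that gene. The mice were young adult males on a C57BL/6 background. The labels do not say which libraries share an animal, and p-values measure the spread between these libraries, which may be technical.

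LPS is a component of the bacterial outer membrane that is sensed by TLR4, and macrophages answer it within hours with NF-kappaB, MAP kinase and interferon signalling. Along with the well-known induction of cytokines, transcription or stability of other messages drops in this window. Short-lived messages, among them those of many transcription factors and signalling inhibitors, can fall and recover quickly because their pool turns over fast.

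Totals ran from 2848793 to 7743442 counts per library, and 3 counts were worth 1.05 CPM in the shallowest. Macrophage markers (7 of 7 genes detected, summed 4916 to 8753 CPM) were high in every library, and those of granulocyte precursors (19.3 to 208 CPM), B cells (0 to 7.01), T or NK cells (0 to 1.94) and dendritic cells (0.647 to 12.5) were lower. Granulocyte precursor genes had a median sum of 63.8 CPM, with Elane at a median of 0. The fibroblast genes Col1a1, Col1a2, Dcn and Pdgfra had a median sum of 1.87 CPM but ran from 0 to 300 CPM. Irf5 held 276 to 398 CPM in libraries labelled KO and 205 to 352 CPM in WT. It was called higher in KO in 4 of 7 conditions, Control at 0 h (log2 fold change 0.47 ± 0.06 SE, adjusted p = 9.12e-08), Control at 2 h (adjusted p = 0.0193), palmitate at 24 h (adjusted p = 0.00272) and LPS at 24 h (0.47 ± 0.06, adjusted p = 1.55e-07). These counts of the whole gene do not check the deletion. Lyz2, the gene that carries the Cre, was lower in KO at Control 0 h (log2 fold change −0.51 ± 0.09 SE, adjusted p = 0.000162) and in the other 6 conditions.

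The size of the set depends on how libraries are scaled. On library totals the median gene of at least 5 CPM was itself 0.17 lower in LPS at 2 h and 0.06 lower at 24 h. With TMM-scaled library sizes, which remove that shift, 30 genes met the same limits and 28 of them were among the 59. Bmf, Arrdc3, Dusp6, Tnfaip8l2, Zfp90, Txnip and Irf8 met them under both scalings, while Osgin1, which had the fifth largest fall, and Per1, Il16, Klf10, S1pr2, Zbtb1 and Lfng met the limits only on library totals. Every 1 of the 59 was lower at 2 h under either scaling. In the TMM-scaled fit their log2 fold changes lay between −4.23 and −0.86.

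At the edge of the limits, Zfp688 (5.09 CPM) and Zfp324 (5.41) were just inside the minimum, and Spata2l (4.64) and Helq (4.63) just outside. The fall placed Zfp971 (−1.0001) and Zfp329 (−1.0013) inside, and Itpripl1 (−0.998) and Eri2 (−0.987) outside. At 24 h, Etaa1 (−0.30) and Col12a1 (−0.30) were inside, and Zfp637 (0.303) and Tsku (0.307) outside.

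Promoter sequence is shown here for a pro-apoptotic gene, a metabolic regulator, a lineage factor and a clock gene of the set. Each line holds 250 bases before and 50 bases after the most upstream start that RefSeq gives, on the gene's own strand (GRCm38.p6). Capitals mark matches of the motifs searched on both strands. For the TATA box the letters were TATAAA and for the E-box, which basic helix-loop-helix proteins bind, CACGTG. The cAMP response element was searched as TGACGTCA and the AP-1 element, bound by Fos and Jun, as TGAGTCA. Proteins of the SP and KLF families bind the GC box, GGGCGG, and GAGGAAG stood for the element of PU.1, the macrophage master regulator. The kappaB motif of NF-kappaB was searched as well. Bmf lies at chr2:118549637-118549936 (minus strand), Txnip at chr3:96557707-96558006 (plus), Irf8 at chr8:120736108-120736407 (plus) and Per1 at chr11:69098699-69098998 (plus).
Bmf: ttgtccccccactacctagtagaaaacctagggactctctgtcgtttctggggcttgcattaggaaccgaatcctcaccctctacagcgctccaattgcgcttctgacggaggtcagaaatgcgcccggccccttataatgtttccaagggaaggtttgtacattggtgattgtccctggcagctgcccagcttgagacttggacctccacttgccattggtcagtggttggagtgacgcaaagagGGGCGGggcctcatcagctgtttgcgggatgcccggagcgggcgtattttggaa
Txnip: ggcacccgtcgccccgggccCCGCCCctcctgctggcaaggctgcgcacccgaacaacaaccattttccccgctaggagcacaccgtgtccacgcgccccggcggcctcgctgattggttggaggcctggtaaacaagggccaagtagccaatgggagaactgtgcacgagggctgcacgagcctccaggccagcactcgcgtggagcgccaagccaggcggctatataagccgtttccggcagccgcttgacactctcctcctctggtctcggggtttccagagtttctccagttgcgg
Irf8: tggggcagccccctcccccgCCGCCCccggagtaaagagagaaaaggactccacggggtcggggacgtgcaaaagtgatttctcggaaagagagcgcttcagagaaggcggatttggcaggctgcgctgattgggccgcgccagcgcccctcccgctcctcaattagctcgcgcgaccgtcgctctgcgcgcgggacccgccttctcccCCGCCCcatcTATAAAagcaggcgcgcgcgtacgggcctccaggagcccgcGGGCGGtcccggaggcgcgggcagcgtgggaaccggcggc
Per1: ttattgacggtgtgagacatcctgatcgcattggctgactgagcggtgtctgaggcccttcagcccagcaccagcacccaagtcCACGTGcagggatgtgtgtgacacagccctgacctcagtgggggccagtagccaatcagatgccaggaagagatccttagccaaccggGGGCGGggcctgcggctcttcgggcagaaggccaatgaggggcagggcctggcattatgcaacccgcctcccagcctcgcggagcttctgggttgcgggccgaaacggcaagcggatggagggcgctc

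In these sequences Bmf and Txnip each held 1 GC box, Per1 an E-box and a GC box, and Irf8 3 GC boxes and a TATA box that began 31 bases before its start. Another promoter of Bmf, not shown (chr2:118544538-118544837), held a kappaB match. RefSeq promoters were found for 49 of the 59 genes, 64 in all because some genes have several starts, and in none of them did matches of different motifs overlap. A GC box stood in 36 of the 64 (56.2%), against 64.6% of 9322 promoters of genes that reached 5 CPM and 35.7% of all 32851 in the table. The E-box was in 6 (9.38%) against 10.7% and 7.15%, and the kappaB motif in 3 (4.69%) against 5.15% and 4.51%. For the PU.1 element the count was 6 (9.38%) against 14% and 13.6%, for the AP-1 element 3 (4.69%) against 3.59% and 5.2%, for the TATA box 3 (4.69%) against 6.66% and 13.6%, and for the cAMP response element 2 (3.12%) against 3.2% and 1.79%. A match is a description of the letters only.

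The strongest fall was that of Bmf, which encodes a BH3-only protein that promotes apoptosis (chr2:118528757-118549687, minus strand). In Control at 2 h the WT libraries held 19.4, 21.2 and 17.8 CPM and the KO libraries 15.4, 18.4 and 16.1. In LPS at 2 h the values were 1.62, 1.98 and 2.00 in WT and 1.40, 0.720 and 0.584 in KO. All 6 LPS libraries lay far below all 6 Control libraries, and the level fell by 3.00. After 24 h of LPS the 6 libraries spanned 14.9 to 23.5 CPM and overlapped Control at 24 h (16.1 to 21.6). In bulk RNA, fewer cells that make a message and less message per cell cannot be told apart.

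**Figure D1:**
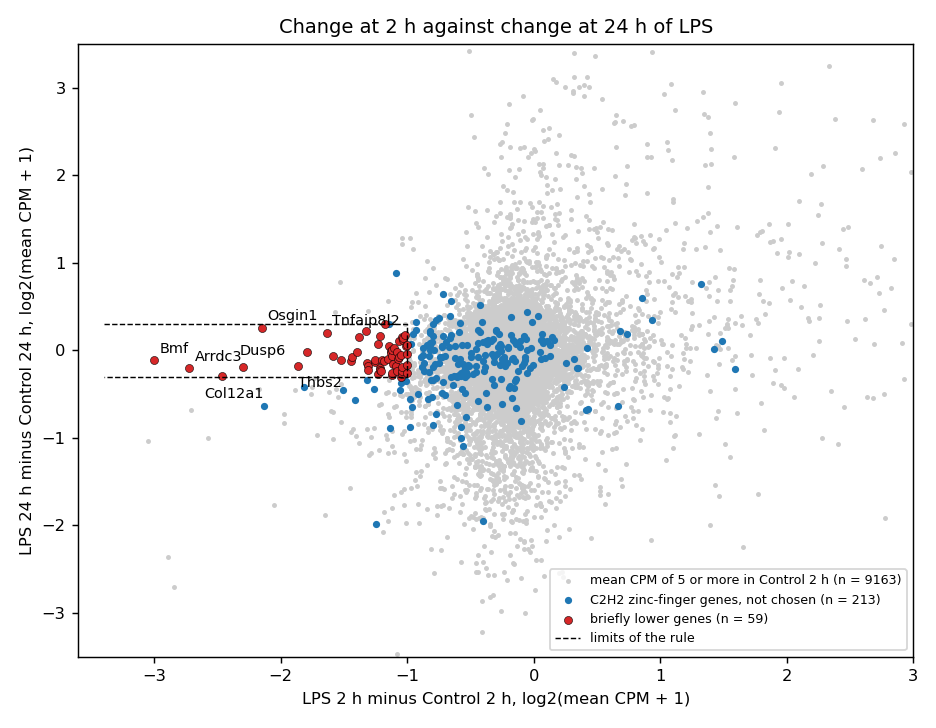
Change in level at 2 h (horizontal axis) against change at 24 h (vertical axis) of LPS for the genes of at least 5 CPM, in log2(mean CPM + 1). Red points are the 59 genes inside the dashed limits, blue points other C2H2 zinc-finger genes and grey points the rest, with 66 genes outside the axes. Of the red points Bmf is farthest to the left (−2.9995). Most blue points lie left of 0 at 2 h, on a scale where the median of all genes of at least 5 CPM is itself −0.17.

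Alpha-arrestins, adaptors for the endocytosis of membrane proteins, gave 3 members. Txnip (chr3:96557957-96561883, plus strand), which binds thioredoxin and limits glucose uptake, held 88.0 to 109 CPM in Control at 2 h and 34.8 to 45.9 CPM in LPS, with no overlap, and its level fell by 1.31. At 24 h it reached 124.4 to 151.5 CPM in LPS, and all 6 of these values still lay under the lowest Control value (152.4 to 172.7 CPM). Arrdc3 (chr13:80883384-80896042, plus strand) ran from 42.8 to 61.0 CPM in Control and from 1.94 to 9.83 CPM in LPS at 2 h, a fall of 2.73. Arrdc2 ran from 9.07 to 13.3 CPM and from 2.26 to 7.37 CPM. Of 24 FOXO and MondoA targets, the list these genes belong to, 9 were lower (37.5%) and 8 higher (33.3%) at 2 h, where 15.2% of all 11624 genes tested were lower and 19% higher (edgeR quasi-likelihood test, adjusted p under 0.05). The counts of other lists are to be read against these shares.

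Members that act in signalling included Dusp6, Tnfaip8l2, Tab1 and Trim65. Dusp6 (chr10:99263231-99267489, plus strand), a phosphatase that removes the activating phosphates of ERK, held 43.1, 40.6 and 45.5 CPM in WT Control and 45.2, 39.8 and 40.9 CPM in KO Control at 2 h. LPS libraries held 4.85, 7.37 and 7.16 CPM in WT and 5.62, 14.04 and 8.18 CPM in KO. The level fell by 2.29 with no overlap, and at 24 h LPS (21.7 to 32.5 CPM) and Control (29.96 to 35.6 CPM) overlapped. Among 20 DUSP, SPRY and SPRED genes 2 were lower and 9 higher at 2 h and 9 were not called. Tnfaip8l2, which restrains innate immune signalling, went from 35.5 to 47.6 CPM in Control to 7.02 to 15.6 CPM in LPS at 2 h and stood at 47.7 to 62.8 CPM after 24 h, against 39.5 to 53.2 CPM in Control. Tab1, the adaptor that activates the kinase TAK1, went from 12.5 to 16.7 CPM to 4.205 to 6.67 CPM and was back at 10.9 to 17.7 CPM. Trim65, a ubiquitin ligase, stood at 19.01 to 26.8 CPM and at 6.83 to 10.1 CPM, but shares part of its position with Trim47 on the same strand. Of 171 ubiquitin ligase adaptors 37 were lower (21.6%) and 34 higher (19.9%) at 2 h, near the 15.2% and 19% of all genes.

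Irf8, which with PU.1 sets the macrophage programme (chr8:120736358-120756694, plus strand), held 271, 260 and 256 CPM in WT Control at 2 h and 254, 267 and 270 CPM in KO. In LPS at 2 h the values were 132, 111 and 121 CPM in WT and 112, 113 and 101 CPM in KO. These groups were tight and did not overlap, with a fall of 1.18. Values at 24 h were 216 to 253 CPM in LPS and 240 to 279 CPM in Control. Lyl1, a basic helix-loop-helix factor of blood progenitors, went from 13.1 to 15.9 CPM to 3.86 to 5.58 CPM and back to 12.4 to 18.99 CPM, and overlaps Nfix on the opposite strand. Klf10, a factor induced early by TGF-beta, went from 44.4 to 62.1 CPM to 20.7 to 29.2 CPM. Of 11 KLF genes 3 were lower (27.3%) and 4 higher (36.4%) at 2 h, beside 15.2% and 19% of all genes. Per1, a repressor of the circadian clock, went from 28.1 to 38.9 CPM to 11.1 to 21.1 CPM and back to 32.3 to 43.3 CPM. In the clock list 7 of 20 genes were lower (35%) and 5 higher (25%).

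**Figure D2:**
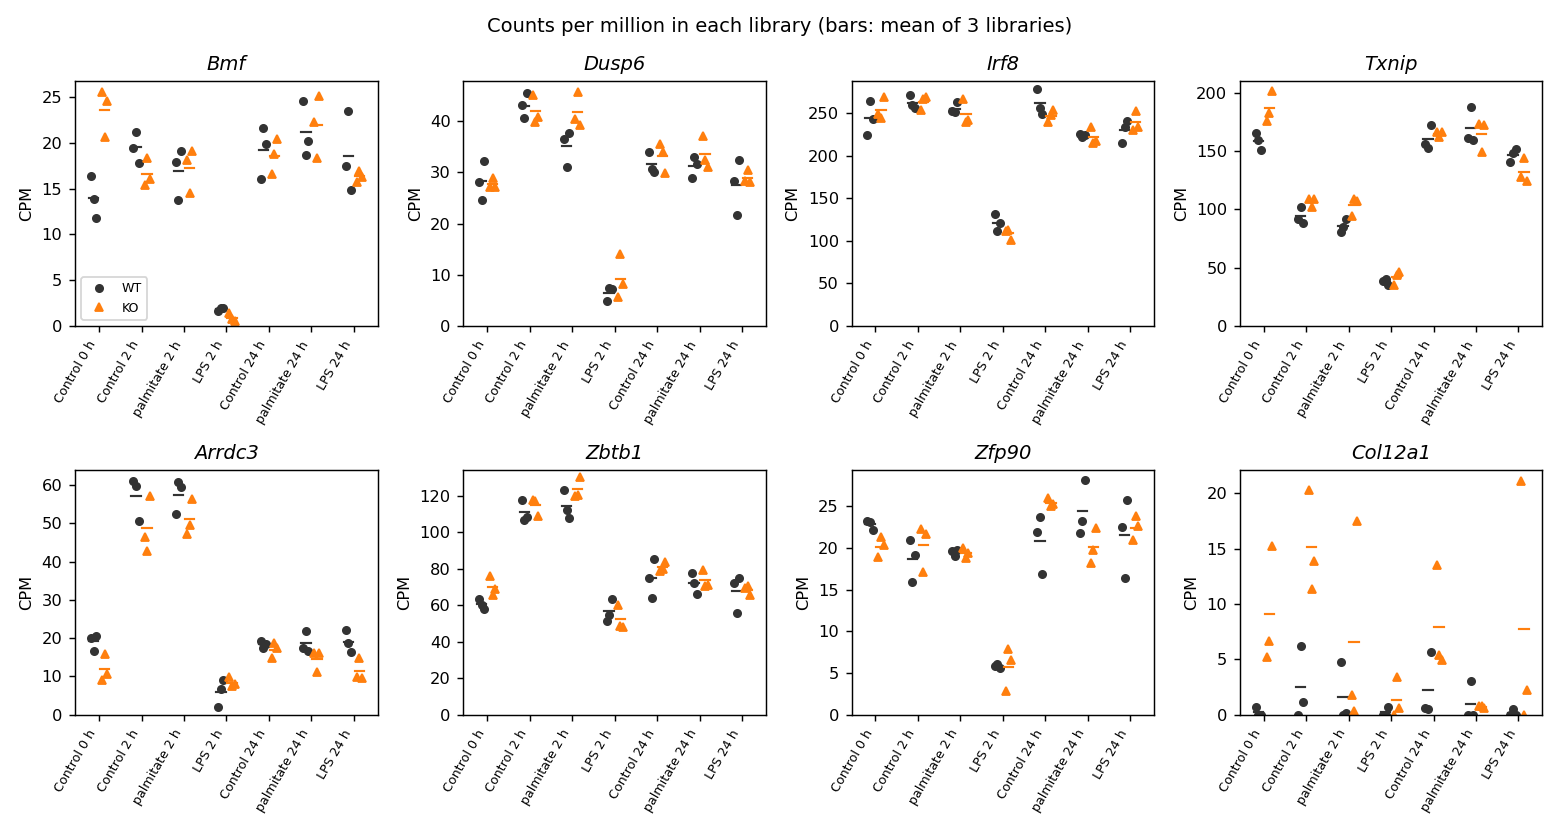
CPM of 8 genes in each of the 42 libraries over the 7 conditions, with WT as circles, KO as triangles and a bar for the mean of 3 libraries (linear axis from 0). Bmf, Dusp6, Irf8, Txnip and Zfp90 drop in LPS at 2 h in both genotypes, Arrdc3 and Zbtb1 drop there from a level that untreated cells held at 2 h and not at 0 or 24 h, and Col12a1 varies between libraries of a group.

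The other named members of large fall were the following. Osgin1, an oxidative stress response gene, went from 44.3 to 66.2 CPM in Control at 2 h to 9.001 to 16.99 CPM in LPS, and at 24 h it stood at 43.3 to 57.1 CPM against 34.8 to 50.4 CPM. Arhgap25, which switches off Rac, went from 151 to 167 CPM to 58.1 to 69.2 CPM and then to 101 to 128 CPM, with Control at 118 to 138 CPM. Of 72 RGS and small GTPase regulators 12 were lower (16.7%) and 18 higher (25%) at 2 h, beside 15.2% and 19% of all genes. Skp2, the F-box subunit of a ligase that degrades p27, went from 7.25 to 11.2 CPM to 2.53 to 4.21 CPM, and overlaps Lmbrd2 on the opposite strand. AI467606 went from 9.24 to 15.1 CPM to 2.88 to 5.27 CPM. S1pr2, a receptor for sphingosine-1-phosphate, went from 59.1 to 78.8 CPM to 28.2 to 37.8 CPM. In the list of G protein-coupled receptors 12 of 65 genes were lower (18.5%) and 22 higher (33.8%) at 2 h. The identifier ENSMUSG00000056552, which the tables used here do not name, went from 6.16 to 9.22 CPM to 0.702 to 3.24 CPM.

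Other lists gave these counts at 2 h of LPS, where 19% of all genes were higher and 15.2% lower. Of 26 immediate early genes, the first genes switched on by a stimulus, 20 were higher and 4 lower. Resident macrophage receptors had 12 higher and 5 lower of 40, phosphoinositide kinases and phosphatases 16 and 7 of 47, and cell cycle inhibitors and p53 targets 13 and 7 of 33. For histone modifiers the counts were 11 higher (20.4%) and 8 lower (14.8%) of 54, at the background, for nuclear receptors 8 and 6 of 24, for the TGF-beta and BMP pathway 7 and 5 of 35, and for microRNA host and Snhg transcripts 3 and 1 of 15.

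The rest of the set held genes of many roles. Among them were Fastkd3 (mitochondrial RNA), Tmem126b (complex I assembly), Coa7 (complex IV assembly), Mief2 (fission), Ppcs (coenzyme A synthesis), Trmt12 and Trmo (tRNA modification). Casp2 and Dedd2 of the cell death machinery, Etaa1 of the DNA damage response, the Golgi protein Gorasp1 and the cytokine precursor Il16 were also members. Il16 overlaps Stard5, and Gorasp1 overlaps Wdr48 and Cx3cr1, so their counts are uncertain. In 54 of the 59 genes all 6 LPS libraries at 2 h lay below all 6 Control libraries, which 16.1% of the 9163 genes also did. The 5 that overlapped were Col12a1, Thbs2, Zfp169, Zfp329 and Zfp971.

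C2H2 zinc-finger genes, listed by symbol (Zfp, Zbtb, Zkscan, Zscan, Zik1 and Zfx), made the largest group. Most of these encode DNA-binding proteins with a KRAB or BTB domain that repress transcription, many of them at transposable elements. They numbered 18 of the 59 (30.5%), against 231 of the 9163 genes of at least 5 CPM (2.52%) and 11 of the 81 that stayed lower (13.6%). Zfp472 fell furthest, from 7.88 to 10.6 CPM in Control at 2 h to 0 to 3.42 CPM in LPS, and returned to 4.78 to 9.38 CPM. Zfp90 held 20.99, 15.9 and 19.2 CPM in WT Control and 22.3, 17.1 and 21.7 CPM in KO Control at 2 h. In LPS it held 5.82, 6.11 and 5.66 CPM in WT and 2.81, 7.92 and 6.62 CPM in KO, below every Control library. At 24 h the LPS libraries (16.4 to 25.8 CPM) lay among those of Control (16.9 to 25.97 CPM). Zfp316 (10.5 to 14.7 CPM, then 2.34 to 5.27 CPM), Zfp709 (7.53 to 13.5 CPM, then 1.62 to 5.997 CPM) and Zfp467 (19.8 to 29.8 CPM, then 7.01 to 11.9 CPM) followed. Paralogues of this family are similar in sequence, and how the counting shared reads between them is not given in the sources used here.

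The fall at 2 h ran through the family beyond the chosen genes. Of 359 zinc-finger genes tested, 185 (51.5%) were lower and 31 (8.64%) higher in LPS at 2 h, where 15.2% of all genes were lower and 19% higher. Their median log2 fold change was −0.52, beside −0.02 over all genes. Without the 18 chosen genes, 167 of 341 (49%) were lower and the median was −0.48. On library totals the direction was the same, with a median of −0.52 for the 231 genes of at least 5 CPM beside −0.17 for all. At 24 h, 60 of the 359 (16.7%) were lower and 35 (9.75%) higher, where 26.5% and 25.6% of all genes were, and the median was −0.06. The list was assembled with results of these data known and shares its contrast with the rule, so these counts describe the libraries. 

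**Figure D3:**
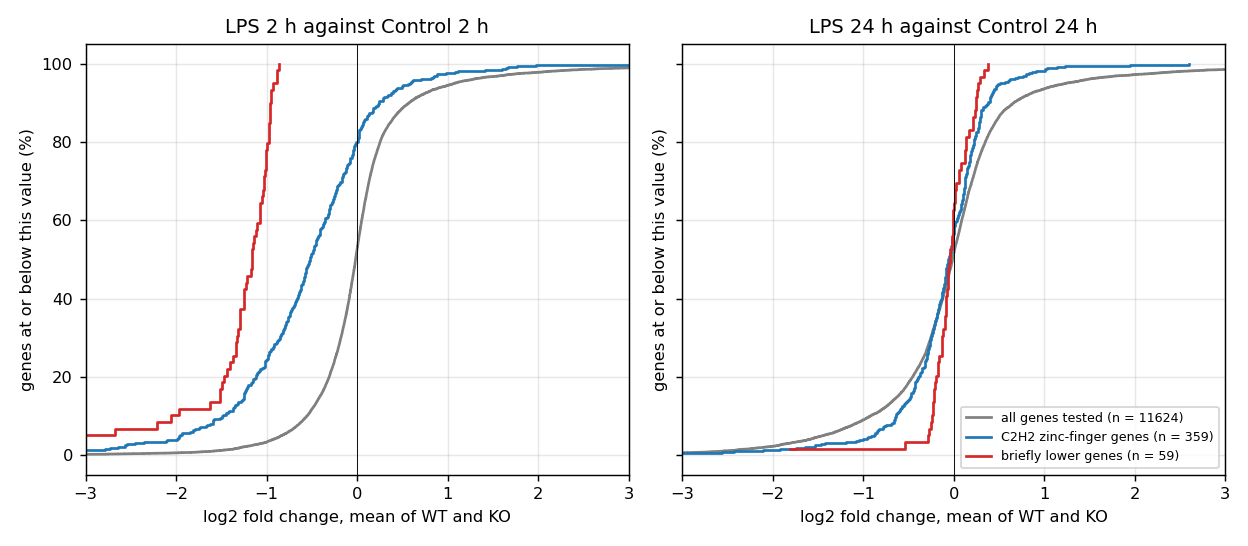
Share of genes at or below each log2 fold change (horizontal axis) for LPS against Control at 2 h and 24 h, for all 11624 genes tested (grey), 359 C2H2 zinc-finger genes (blue) and the 59 briefly lower genes (red). The blue curve is shifted to the left at 2 h, with a median of −0.52, and lies near the grey one at 24 h, with a median of −0.06.

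The chosen genes were short. Of the 59, 57 had a GENCODE annotation and all of these were protein coding, with a median length of 12894 bp and 5 exons in the longest transcript, against 25306 bp and 10 exons over the genes of at least 5 CPM. The 39 annotated members outside the zinc-finger list had a median length of 12894 bp and 7 exons, so the shorter length was not limited to that family. Genes that stayed lower at 24 h had 18609 bp and 4 exons. Median transcript length was 3380 bases in the members and 3252 over expressed genes. Behind the stop codon, the pentamer ATTTA of AU-rich elements was found in 43 of 56 members (76.8%) and 67.8% of expressed genes. The sequence behind the stop codon had a median of 1384.5 bases in the members and 1021 in expressed genes. Per kilobase of it, the pentamer occurred at a median of 1.13 in the members and 1.30 in expressed genes.

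Col12a1 and Thbs2 stood apart. Both encode extracellular matrix proteins of connective tissue, and their values differed between libraries of the same group. Col12a1 held 0, 6.24 and 1.19 CPM in WT Control at 2 h and 20.3, 11.4 and 13.9 CPM in KO. The summed CPM of the 4 fibroblast genes in the same libraries was 1.16, 51.7 and 2.08 in WT and 104, 70.9 and 64.0 in KO. In the 17 libraries where that sum was above 10 CPM, Col12a1 ran from 1.74 to 21.1 CPM and Thbs2 from 1.32 to 22.9 CPM. In the other 25, Col12a1 ran from 0 to 3.02 CPM and Thbs2 from 0 to 1.76 CPM. In LPS at 2 h the sum was 0.323, 0 and 0.333 in WT and 0.702, 117 and 1.17 in KO. The part of fibroblast content in the fall of these genes was not tested. Without the 5 libraries where the sum was above 100 CPM, an alternative chosen after the data were seen, 56 genes met the limits, 44 of them members. Col12a1 and Thbs2 did not meet them. Neither did other members, among them Fastkd3, Pdik1l, Zbtb1, Lfng, Prr12 and Coa7, so dropping out was not particular to the 2 matrix genes.

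How the return at 24 h came about differed between genes. In 58 of the 59 the level in LPS was higher at 24 h than at 2 h, by a median of 1.15 and by at least 0.5 in 55. Of the 9163 genes of at least 5 CPM, 5844 were higher, 2134 of them by at least 0.5, with a median of 0.17. The rule asked for a low level in LPS at 2 h and a level near Control at 24 h, which favours this rise. Control levels changed little for most, with a median of −0.01 between 2 and 24 h and 51 genes within 0.5, as were 8677 of the 9163. In 7 genes Control fell by at least 0.5, namely Arrdc3, Col12a1, Thbs2, Mex3b, Klf10, Zbtb1 and Lfng, and in 5 of these (Arrdc3, Mex3b, Klf10, Zbtb1 and Lfng) it fell by more than LPS rose. Mex3b, an RNA-binding ubiquitin ligase, held 6.51 to 12.3 CPM in Control and 1.75 to 5.21 CPM in LPS at 2 h, but 1.79 to 3.64 CPM in Control and 1.32 to 2.35 CPM in LPS at 24 h. Its return was a fall of Control to the level of LPS. Txnip was the 1 gene whose Control level rose by at least 0.5 (0.69).

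Control at 0 h was not used to choose the genes, but the LPS libraries at 2 h were, as those where the genes were low, so their difference is a description too. The level in LPS at 2 h was lower than at 0 h by at least 1 in 41 of the 59 and by at least 0.5 in 56, with a median of −1.18. Over the 9163 genes of at least 5 CPM, 188 were lower by at least 1 and 1295 by at least 0.5, with a median of −0.17. All 6 LPS libraries lay below all 6 Control libraries at 0 h in 44 of the 59 and in 1502 of the 9163 genes. The 3 genes with a difference under 0.5 were Arrdc2 (−0.41), Lfng (−0.36) and Zbtb1 (−0.26). Zbtb1, a BTB zinc-finger factor needed for lymphocyte development, held 58.1 to 76.3 CPM at 0 h, 107 to 118 CPM in Control at 2 h and 48.1 to 63.6 CPM in LPS at 2 h. LPS libraries thus lay under Control at 2 h and overlapped Control at 0 h.

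**Figure D4:**
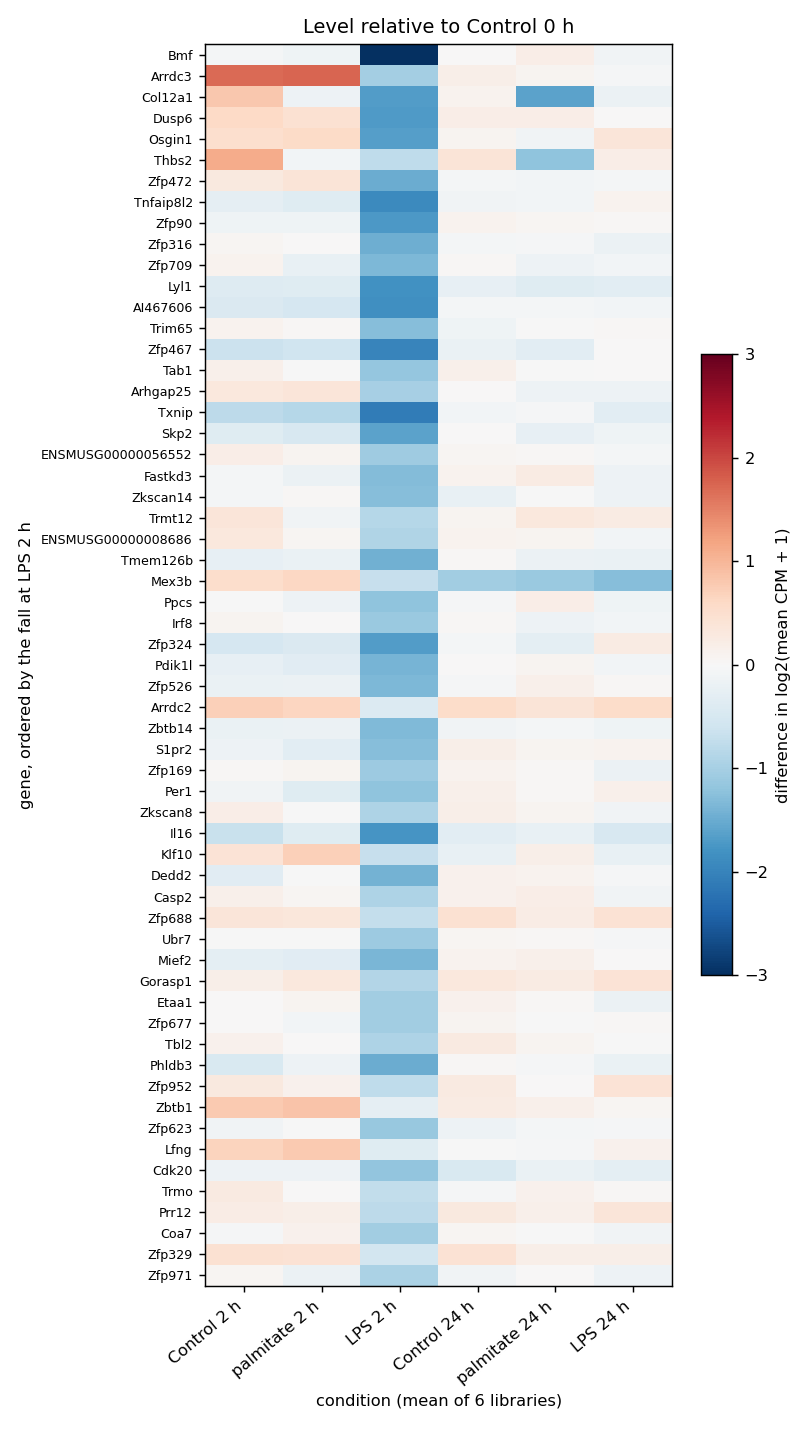
Mean level of each of the 59 genes in 6 conditions relative to Control 0 h, as a difference in log2(mean CPM + 1) over 6 libraries, ordered by the fall at LPS 2 h. The LPS 2 h column is blue in all rows, the Control and palmitate columns at 2 h are red for Arrdc3, Zbtb1 and Lfng and blue for Txnip and Zfp467, and Mex3b is blue in all columns at 24 h.

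Levels in the absence of LPS also moved with time in culture. Palmitate at 2 h against Control at 0 h used no library of the rule, an alternative chosen after the data were seen. In it 9 members (15.3%) rose and 12 (20.3%) fell, where 9.82% and 8.83% of all genes did. Arrdc3 rose from 9.04 to 20.5 CPM to 47.3 to 60.8 CPM, without overlap (log2 fold change 1.80 ± 0.13 SE, adjusted p = 1.07e-16). Zbtb1 gave 0.83 ± 0.06 (adjusted p = 2.42e-15) and Klf10 0.69 ± 0.08 (adjusted p = 2.85e-10). Among those that fell, Txnip gave −0.90 ± 0.06 (adjusted p = 6.32e-18), Zfp467 −0.66 ± 0.09 (adjusted p = 3.03e-07) and S1pr2 −0.35 ± 0.06 (adjusted p = 2.78e-05). Control at 2 h against 0 h shares the libraries at 0 h and uses those at 2 h that chose the genes for a high level, which favours rises, so its values are a description. The fit called 10 of the 59 (16.9%) higher and 10 (16.9%) lower, where 9.35% and 7.36% of all genes were, and the number lower was 6 without WT Control 0 h library 3. Arrdc3 held 42.8 to 61.0 CPM in Control at 2 h (log2 fold change 1.78 ± 0.13 SE), Zbtb1 gave 0.77 ± 0.06 and Lfng, a glycosyltransferase that modifies Notch, 0.66 ± 0.09. Txnip gave −0.80 ± 0.06, Il16 −0.70 ± 0.09 and Zfp467 −0.70 ± 0.10.

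At 24 h against 0 h in Control, 3 members (5.08%) rose and 6 (10.2%) fell, where 7.9% and 8.62% of all genes did. The Control libraries at 24 h were used by the rule, though only against LPS at 24 h. Mex3b fell from 5.17 to 6.69 CPM at 0 h to 1.79 to 3.64 CPM (log2 fold change −1.41 ± 0.21 SE, adjusted p = 8.97e-07). Il16 fell by 0.43 ± 0.09 (adjusted p = 0.000236) and Klf10 by 0.31 ± 0.08 (adjusted p = 0.00439, and 0.0510 without KO Control 0 h library 2). Each of the 3 rises lost its call when certain single libraries were left out. Prr12 gave 0.22 ± 0.06 (adjusted p = 0.0122, but 0.0516 without WT Control 0 h library 1 and 0.0519 without KO Control 24 h library 1). For Arrdc2 the value was 0.56 ± 0.17 (adjusted p = 0.0173, but 0.0700 without WT Control 24 h library 3). Zbtb1 gave 0.19 ± 0.07 (adjusted p = 0.0436) and lost its call without any 1 of 8 libraries, WT Control 0 h 2 and 3, KO Control 0 h 2 and 3, WT Control 24 h 1 and 3 and KO Control 24 h 2 and 3 (adjusted p = 0.0539 to 0.205). Without WT Control 24 h library 3, 1 member was left that rose.

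Palmitate is a saturated fatty acid. At 2 h 0 of the 59 were called against Control by edgeR's quasi-likelihood test, 6 had an unadjusted p under 0.05 and DESeq2 called 1. Since 0.542% of all genes were called, a count of 0 among 59 is near the background and is no result about these genes, and the Control libraries were among those that chose them. The values nearest to a call were those of Klf10, which held 44.4 to 62.1 CPM in Control and 62.5 to 69.0 CPM in palmitate without overlap (log2 fold change 0.29 ± 0.07 SE, adjusted p = 0.0516). Bmf, which LPS lowered most, held 13.7 to 19.1 CPM in palmitate at 2 h against 15.4 to 21.2 CPM in Control. At 24 h Klf10 was the 1 member called (2.57% of all genes), at 40.7 to 52.3 CPM against 30.4 to 40.6 CPM in Control (0.46 ± 0.08, adjusted p = 0.000153).

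Palmitate at 24 h against palmitate at 2 h used no library of the rule. In this comparison 10 members rose (16.9%, against 8.83% of all genes) and 9 fell (15.3%, against 10.8%). Txnip rose from 80.9 to 109 CPM to 149 to 188 CPM (log2 fold change 0.82 ± 0.06 SE, adjusted p = 2.99e-16), S1pr2 by 0.41 ± 0.06 (adjusted p = 1.44e-06) and Mief2 by 0.53 ± 0.14 (adjusted p = 0.0033). Arrdc3 fell from 47.3 to 60.8 CPM to 11.1 to 21.7 CPM (−1.72 ± 0.12, adjusted p = 5.48e-16), without overlap. Zbtb1 fell by 0.71 ± 0.06 (adjusted p = 5.14e-13) and Mex3b fell by 2.12 ± 0.20 (adjusted p = 2.54e-12), from 7.72 to 10.6 CPM to 1.55 to 2.60 CPM. These genes thus moved over time in palmitate in the direction that Control showed.

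To see whether a fall and return found in some libraries was found in others, the rule was applied to 1 genotype and the genes were tested in the other. Libraries of both genotypes chose the 59, so these tests concern only the genes chosen on 1 genotype. On WT libraries alone it chose 76 genes, 40 of them among the 59. In KO, 50 of the 76 (65.8%) were lower in LPS at 2 h and 0 higher, where 9.16% of all genes were lower, and the median log2 fold change was −0.81 beside −0.01 over all genes (DESeq2 also called 50 lower). The level of 31 of the 76 fell by at least 1 in KO, and 39 were both called lower at 2 h and not called at 24 h. The absence of a call at 24 h does not show a return. In KO the level difference at 24 h was within the limit of the rule in 50 of the 76, whether or not they fell at 2 h. Shares of all genes are not given for these counts, which are therefore a description. At 24 h in KO, 8 of the 76 were higher (19.9% of all genes) and 4 lower (21%), with a median of 0.00. Without KO Control 24 h library 2 these counts were 5 and 1, without library 3 of that group 4 and 2, without KO Control 24 h library 1 the lower count was 2, and without KO LPS 24 h libraries 1 or 3 it was 1 or 0. In the reverse, 73 genes were chosen on KO libraries, 34 of them among the 59. In WT, 51 (69.9%) were lower at 2 h and 0 higher (9.1% of all genes lower), with a median of −0.91, and DESeq2 called 52 lower. The level of 31 of the 73 fell by at least 1 in WT, and 39 were both called lower at 2 h and not called at 24 h. In WT the level difference at 24 h was within the limit of the rule in 52 of the 73, whether or not they fell at 2 h. These counts too are a description, without shares of all genes. At 24 h 6 were higher (19.6%) and 7 lower (19.9%), with a median of −0.01. Without WT Control 24 h library 2 or WT LPS 24 h library 2 the higher count was 3, and without WT Control 24 h library 1 the lower count was 4.

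In KO, Bmf (−4.14 ± 0.31 SE, adjusted p = 4.64e-16), Arrdc3 (−2.40 ± 0.21, adjusted p = 6.33e-14) and Osgin1 (−2.09 ± 0.16, adjusted p = 3.85e-16) fell furthest at 2 h among the genes chosen on WT. They were named by that fall in KO, which favours large values. At 24 h in KO, Bmf gave −0.13 ± 0.17 (adjusted p = 0.585), Arrdc3 was still lower (−0.54 ± 0.21, adjusted p = 0.0329) and Osgin1 was higher (0.43 ± 0.12, adjusted p = 0.00272). In WT, Bmf gave −3.18 ± 0.25 (adjusted p = 2.43e-15) at 2 h and 0.00 ± 0.17 (adjusted p = 0.994) at 24 h. Thbs2 and Col1a2, chosen on KO, had the largest fitted falls in WT and were not called there (adjusted p = 0.0864 and 0.161). In WT Control at 2 h Thbs2 was at 0, 5.09 and 0.446 CPM. The rule chose 19 genes in both genotypes. A gene that meets the limits in each genotype also meets them on the mean of both. All 19 are therefore among the 59 by construction, which is no result. These included Bmf, Dusp6, Irf8, Tnfaip8l2, Arhgap25, Lfng, Lyl1, Skp2, Tab1, Zfp90, Zfp316, Zfp467 and Zfp709.

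**Figure D5:**
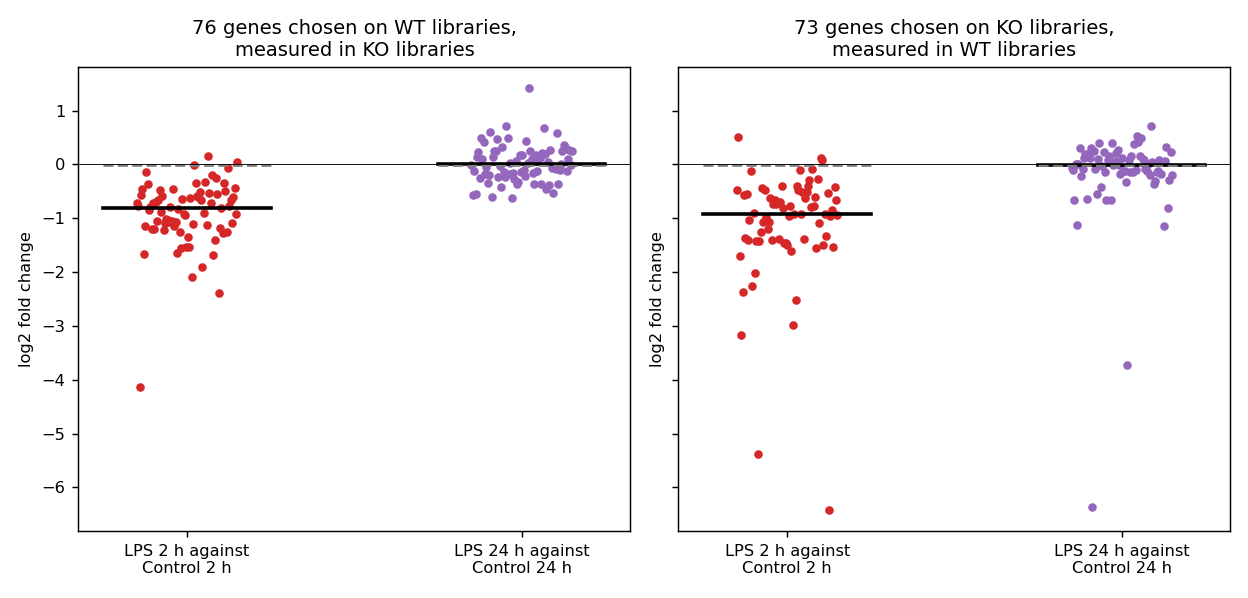
Log2 fold change of LPS against Control at 2 h (red) and 24 h (purple) of genes chosen on the other genotype, 76 genes measured in KO (left) and 73 measured in WT (right). Each point is a gene, black bars are medians of the genes shown (−0.81 and 0.00, and −0.91 and −0.01) and dashed grey bars medians of all genes tested.

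No difference between genotypes in the response to LPS was called for these genes. For the difference of the LPS effect at 2 h, 0 of the 59 genes were called (0% of all genes), 5 had an unadjusted p under 0.05 and DESeq2 called 0. Dusp6 gave 0.61 ± 0.25 SE (adjusted p = 0.612) and Bmf −0.96 ± 0.50 (adjusted p = 0.717), whereas abundant genes left less room, with −0.14 ± 0.10 for Irf8 (adjusted p = 0.798) and 0.01 ± 0.14 for Txnip (adjusted p = 0.992). At 24 h 0 members were called by edgeR (0.0086% of all genes), 2 had an unadjusted p under 0.05 (Arrdc3 and Klf10) and DESeq2 called 0. The median SE of a member was 0.36 at 2 h and 0.28 at 24 h. A call over all genes needs a difference well above its SE, and those of Dusp6 and Bmf were not called. For the typical member, differences of the size of the SE and larger ones could thus have been missed. The absence of calls does not show that the genotypes responded alike.

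Between KO and WT at the same condition, 7 members were called in Control at 0 h. Of the members, 6.78% were higher in KO and 5.08% lower, where 12.5% of all genes were called in either direction. This count is near the background and is no result about the members as a set. Bmf was higher in KO, at 25.5, 20.6 and 24.5 CPM against 16.4, 13.8 and 11.8 CPM in WT without overlap (log2 fold change 0.69 ± 0.17 SE, adjusted p = 0.00382), and was called in every alternative. Col12a1 (adjusted p = 0.009) and Thbs2 were also higher, and in the same libraries the 4 fibroblast genes summed to 39.4, 38.9 and 64.0 CPM in KO and 0.883, 0.607 and 0.129 CPM in WT. Col12a1 lost its call without WT Control 0 h library 3 (adjusted p = 0.0576) or KO Control 0 h library 3 (0.0608). Leaving out both matrix genes, 5 members remained in the count. Zfp971 was higher by 0.94 ± 0.26 (adjusted p = 0.0129, but 0.0511 without WT Control 0 h library 1 and 0.173 without KO Control 0 h library 2). Arrdc3 was lower by −0.75 ± 0.20 (adjusted p = 0.00892, but 0.0922 without KO Control 0 h library 1 and 0.0611 without library 3). S1pr2 (−0.27 ± 0.09, adjusted p = 0.0326) lost its call without any library of the comparison except KO Control 0 h library 2 (adjusted p = 0.0502 to 0.206). Arhgap25 (−0.23 ± 0.08, adjusted p = 0.0431) lost it without WT library 2, KO library 1 or KO library 3 (adjusted p = 0.196 to 0.307). The number called was 4 without WT library 1, WT library 2 or KO library 1 and 2 without KO library 3.

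In Control at 2 h Klf10 was the 1 member called (0.49% of all genes), at 44.4, 49.6 and 44.7 CPM in KO and 61.8, 62.1 and 58.6 CPM in WT. Its log2 fold change was −0.43 ± 0.11 SE (adjusted p = 0.0455), and leaving out any 1 of the 6 libraries ended the call (adjusted p = 0.0629 to 0.287). In the other conditions edgeR called 0 members, where it called 0.146% of all genes in palmitate at 2 h, 0.465% in LPS at 2 h, 0.12% in Control at 24 h, 0.0688% in palmitate at 24 h and 0.146% in LPS at 24 h. At an unadjusted p under 0.05 these conditions had 3, 10, 1, 3 and 6 members, and DESeq2 called 0 in each. Without KO LPS 24 h library 2, 2 members were called in LPS at 24 h.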

How the data were processed

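The deposited values are raw counts per gene, which the authors made from stranded total RNA libraries depleted of rRNA. They aligned reads to mouse mm10 with STAR 2.7.3a, and fastp 0.19.11 is named in the submitters' processing notes. The annotation release and the strand setting of the counting are not given in the sources used here, so counts of overlapping genes are uncertain. Columns name groups and not replicates, and library numbers follow column order. CPM on library totals applied the rule. Counts were then analysed in R 4.3.3 with edgeR 4.0.16 (filterByExpr, TMM, 1 mean per group over 42 libraries, quasi-likelihood F test, Benjamini-Hochberg adjustment over 11624 genes, calls at an adjusted p under 0.05), which kept all 59 members. An SE was obtained as the absolute log2 fold change over the root of its F statistic. The study compared groups with DESeq2, which was used here as an alternative (version 1.42.0). Other alternatives were RLE size factors, all genes with a count, only the libraries compared and leaving out each library. Positions, lengths and exons came from GENCODE M21 (GRCm38) and promoters from RefSeq. The fits were tested on simulated data. Members, gene lists and tests were chosen with earlier results of these data known. The named genes were the 20 members of largest fall, up to 3 members per direction of smallest adjusted p in each comparison, up to 4 members of each list, the 2 genes on either side of each limit, and up to 3 genes of largest fall in the other genotype. Other members are named with their role alone. The result of 1 list of cell type markers is not reported here.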

Additional observations from a re-analysis of the deposited data

How the results depend on the processing

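No paired analysis was possible because the columns carry no replicate numbers. The number of genes that met the rule was 30 with TMM-scaled library sizes and 55 to 66 without 1 library, and it stayed within 1.5 times of 59 with 1 genotype, a window of 0.5 at 24 h, averaged logs or without the 5 libraries highest in fibroblast genes. With all genes that had a count in the fit, members called were 1 for palmitate at 2 h, 3 for palmitate at 24 h, and for KO against WT 4 in Control at 2 h, 2 in palmitate at 2 h, 1 in LPS at 2 h, 2 in Control at 24 h and 3 in LPS at 24 h, with 1 for the LPS effect at 24 h. DESeq2 gave 1 and 2 for palmitate at 2 and 24 h. Using only the libraries compared gave 1 and 4 for these, and for KO against WT 4 in Control at 2 h and 1 in palmitate at 2 h. RLE size factors left 0 members between genotypes in Control at 2 h. Without the 5 libraries highest in fibroblast genes, chosen after seeing the data, that count was 0, that of members higher in Control at 24 h against 0 h was 1, and that of genes chosen on WT and lower in KO at 24 h was 0. Without 1 library, counts for palmitate at 24 h against 2 h were 7 to 9 higher and 8 to 10 lower, for Control at 2 h against 0 h 9 to 11 higher and 6 to 10 lower, and for Control at 24 h against 0 h 1 to 3 higher and 4 to 7 lower. Between genotypes they were 2 to 8 in Control at 0 h, 0 in Control at 2 h and 0 to 2 in LPS at 24 h. Genes chosen on WT and lower in KO at 2 h numbered 41 to 47, with 4 to 9 higher and 0 to 4 lower at 24 h, and those chosen on KO and lower in WT at 2 h 44 to 52, with 3 to 6 higher and 4 to 8 lower at 24 h. The cause of these differences was not tested. Of 502 alternative values for 32 named calls, 458 kept the call, 44 lost it and 0 reversed. Members with under 10 CPM rest on few counts in each library, and differences between genotypes of their LPS effect could not be resolved.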
